A study of Mus musculus with 21 samples.

Results

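The liver X receptors (LXRs) are nuclear receptors that sense oxysterols, the hydroxylated forms of cholesterol, and switch on genes that move cholesterol out of the cell. In macrophages the best known targets are the transporters Abca1 and Abcg1, which load cholesterol onto lipoprotein particles, and the secreted carrier Apoe. Macrophages that take up dying cells or lipoproteins rely on this route, and sterol that is not exported can be stored as cholesteryl ester in lipid droplets.

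The genes described here are 9 of the 23250 in the deposited expression table, found by their Ensembl identifiers. They are the receptors Nr1h3 (LXR alpha) and Nr1h2 (LXR beta), the export genes Abca1, Abcg1 and Apoe, the further LXR targets Mylip and Lpcat3, and the sterol-modifying enzymes Ch25h and Soat1. All 9 passed the filter on low counts, with between 41 counts (Apoe) and 23314 counts (Soat1) in a library.

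The cells were mouse bone-marrow-derived macrophages with a C57BL/6J genetic background, which the series describes as deficient in the mannose receptor, the product of Mrc1, in every group. Marrow from femurs and tibias had been kept for 7 days with 2.5% of a supernatant that supplied GM-CSF, a growth factor for myeloid cells. The groups were untreated cells (0 h) and cells given FcMR or an isotype control protein that were harvested after 4, 12 and 24 h, with 3 libraries in each of the 7 groups. FcMR joins the extracellular region of the mannose receptor to the Fc region of human IgG1. The comparison with isotype asks how cells given FcMR differ from cells given the control protein. Whether a difference comes from the receptor region was not tested. The doses, the make-up of the isotype protein and the age, sex and number of the mice are not given in the sources used here. Nothing says that replicate libraries came from separate mice or cultures, so p-values measure the spread between these libraries, which may be technical.

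The smallest library held 5532225 counts and the largest 66729533. Levels below are CPM, that is counts divided by the library's scaled total, after adjustment by the trimmed mean of M-values (TMM), and 3 counts correspond to between 0.045 and 0.559 CPM on that scale. Mrc1 had 0 to 11 counts in every library. The 7 macrophage markers summed to between 19743 and 35181 CPM and the 6 dendritic cell markers to between 1348 and 1877 CPM. Summed neutrophil and precursor markers lay between 1062 and 1250 CPM in untreated cells and between 149 and 206 CPM in both 24 h groups, and the part of this in the differences from untreated cells was not tested. Of the T cell markers, Cd3d and Cd3e did not exceed 0.515 CPM in any library, while Cd247 lay between 14.9 and 16.7 CPM with FcMR at 12 h and between 1.61 and 2.38 CPM with isotype. In bulk RNA, fewer cells of a type and less RNA per cell cannot be told apart.

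A pair of libraries stood out of order in the titles and apart from their groups in base composition. The serial numbers that open the titles put FcMR 12 h replicate 1 among the isotype 4 h libraries, and isotype 4 h replicate 3 among the FcMR 12 h libraries. Libraries also differed in base composition, measured here as a GC tilt. It is the mean, over the 10% of genes with the most GC-rich transcripts, of the log2 level relative to the average library, less the same mean over the 10% with the least GC. The tilt was -0.84 and -1.59 in isotype 4 h replicates 1 and 2 and 0.63 in replicate 3. It was -0.72 in FcMR 12 h replicate 1 and 0.72 and 0.82 in replicates 2 and 3. The FcMR 24 h libraries, which follow title order, spread widely too (-0.33, -1.25 and 0.43). Nr1h2 and Apoe, given below, lay apart from the rest of their groups in both libraries. Abca1 lay near them, at 397 CPM beside 350 and 382 in FcMR 12 h, and 139 beside 151 and 143 in isotype 4 h. Summed neutrophil markers lay between 275 and 478 CPM in FcMR 12 h and between 854 and 1159 CPM in isotype 4 h. Whether both labels are right was not tested. For each gene, log2 fold changes that use the isotype 4 h or FcMR 12 h group are given with and without both libraries.

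Sequence upstream of the transcription start is shown for Abca1 and Ch25h, the members with the largest rises under FcMR. A promoter was found for 8 of the 9 members in the RefSeq sequences of build GRCm38.p6. The Abca1 stretch is chr4:53159896-53160145 (minus strand) and the Ch25h stretch is chr19:34475169-34475398 (minus strand), each printed 5′ to 3′. The Abca1 stretch ends at the base before the RefSeq start. The Ch25h stretch leaves out the 20 bases before the RefSeq start, because GENCODE M21 places the start of Ch25h further upstream, 4 bases past the end of the stretch.
Abca1: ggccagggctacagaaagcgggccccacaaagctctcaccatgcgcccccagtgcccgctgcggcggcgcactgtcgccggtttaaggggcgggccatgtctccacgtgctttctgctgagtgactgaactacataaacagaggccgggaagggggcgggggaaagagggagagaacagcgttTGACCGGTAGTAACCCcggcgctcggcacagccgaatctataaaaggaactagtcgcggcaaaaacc
Ch25h: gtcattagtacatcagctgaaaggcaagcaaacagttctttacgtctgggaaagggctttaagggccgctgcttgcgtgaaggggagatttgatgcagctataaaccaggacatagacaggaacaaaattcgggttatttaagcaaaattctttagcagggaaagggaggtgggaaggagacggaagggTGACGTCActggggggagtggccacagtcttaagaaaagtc
In Abca1 the capitals mark a match, with 3 mismatches, to the DR4 element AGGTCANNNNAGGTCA that LXR binds with its partner RXR, 67 to 52 bases before the start in both annotations. The match reads on the strand opposite to the one printed. Both strands were searched with up to 3 mismatches, and 18.5% of 32851 promoter windows of 250 bases held such a match. Of the 8 members with a promoter, only Abca1 did. An exact DR4 stood in 5 windows, none of them of these genes. In Ch25h the capitals mark TGACGTCA, the cyclic AMP response element, 61 to 54 bases before the RefSeq start and 45 to 38 before the GENCODE one, which 1.55% of the windows held on either strand. That element was chosen after the Ch25h sequence had been read. A match describes letters and is not evidence of binding.

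**Figure D1:**
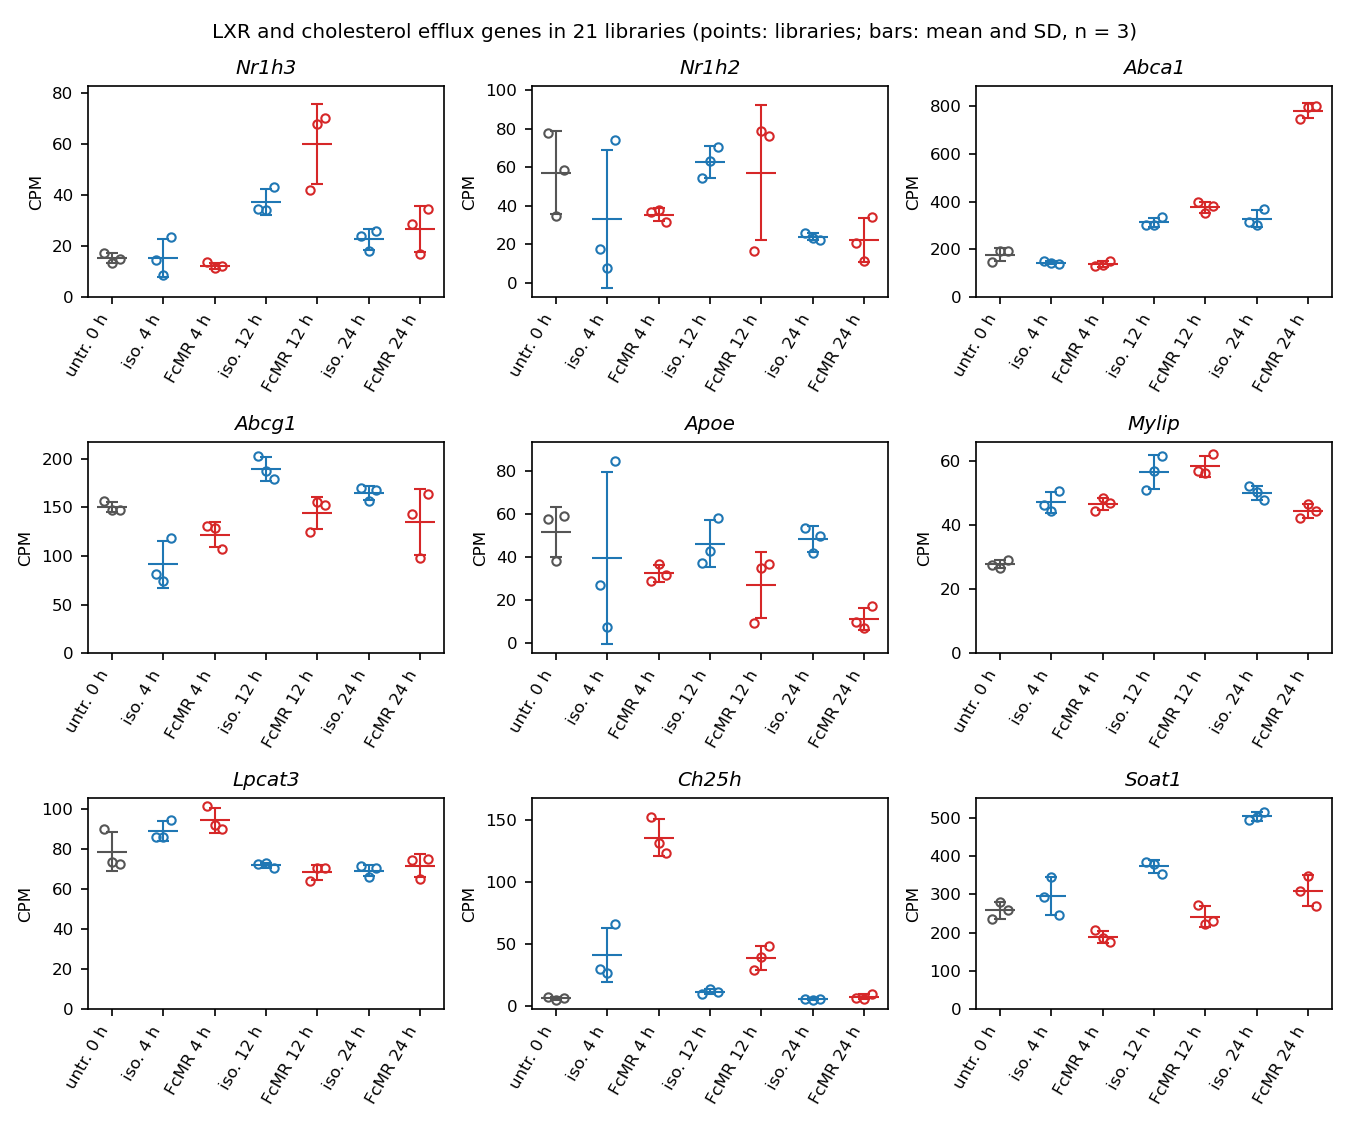
Level of each of the 9 genes (CPM after TMM scaling, y axis) in the 7 groups (x axis), with a point for each library and bars for mean and SD (n = 3). Abca1 is highest in the FcMR 24 h libraries (744 to 799 CPM), Ch25h in the FcMR 4 h libraries (123 to 152 CPM) and Soat1 in the isotype 24 h libraries (493 to 515 CPM).

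Levels of different genes were compared per kilobase of the longest annotated transcript. In untreated cells the highest means were those of Apoe (36.7 ± 8.35 CPM per kb, SD, n = 3), Lpcat3 (33.2 ± 4.11) and Soat1 (30.8 ± 2.64), and the lowest was that of Ch25h (4.73 ± 0.996). With isotype at 24 h Soat1 led (60.1 ± 1.33 CPM per kb), ahead of Apoe (34.3 ± 4.26) and Abca1 (32.0 ± 3.51). After 24 h of FcMR the order had another leader again. Abca1 stood at 76.0 ± 3.04 CPM per kb there, Soat1 at 36.9 ± 4.75 and Apoe at 8.0 ± 3.67.

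Against isotype, edgeR called 2 of the 9 genes at 4 h, where 17.7% of all 13468 genes tested were called, 2 at 12 h, where 16.1% were called, and 3 at 24 h, where 20.9% were called. A gene was called when its Benjamini-Hochberg adjusted p over all genes tested was under 0.05. Ch25h rose at 4 h and 12 h, Abca1 rose at 24 h, Soat1 fell at all 3 times, and Apoe fell at 24 h. The median log2 fold change of the 9 genes was -0.02, -0.07 and -0.14 at 4, 12 and 24 h, beside -0.07, -0.02 and 0.01 over all genes tested. Split by direction, the share of all genes tested that rose was 8.62%, 8.61% and 11.4% at the 3 times, and the share that fell was 9.13%, 7.49% and 9.44%. A joint test over the 3 times asked if the difference between FcMR and isotype changed between them. It called Abca1 (adjusted p = 3.78e-05) and none of the other 8 genes at that threshold, against 11% of all genes.

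**Figure D2:**
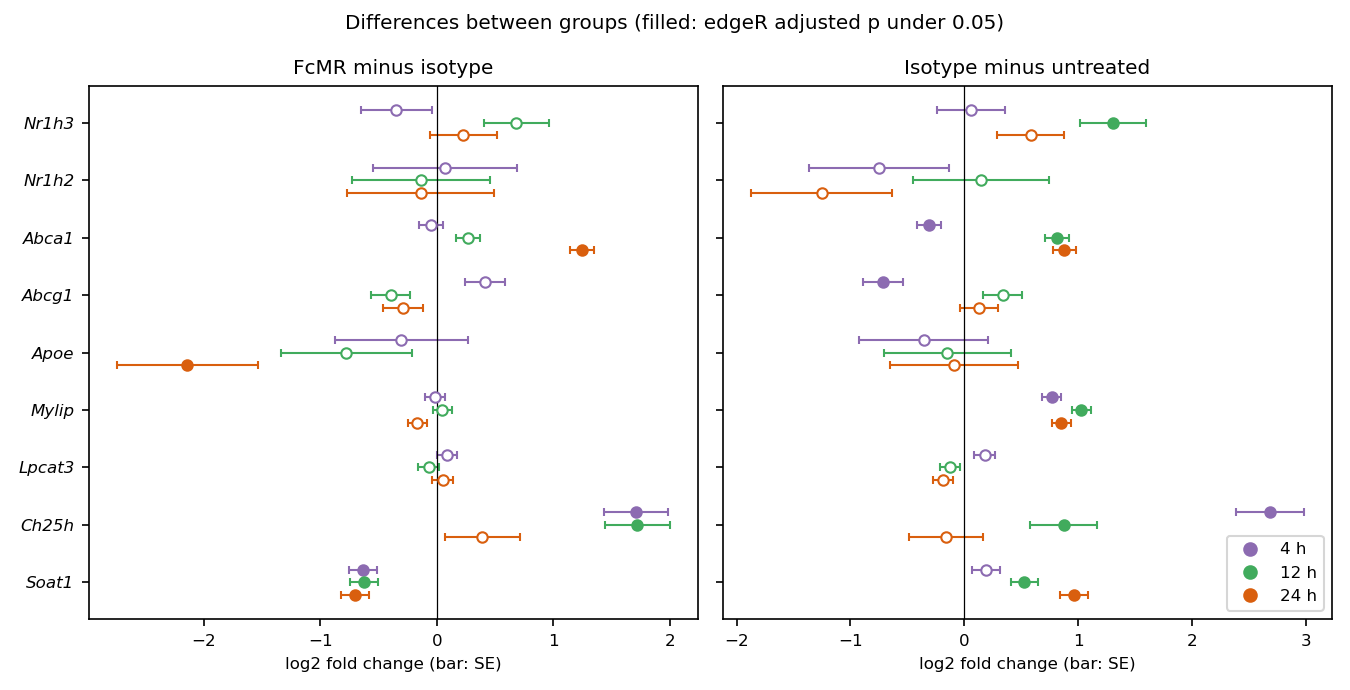
Log2 fold change (x axis, bars are SE) of each gene (y axis) for FcMR minus isotype and for isotype minus untreated at 4, 12 and 24 h, with filled points for an edgeR adjusted p under 0.05. For FcMR, Abca1 at 24 h (1.25), Ch25h at 4 h and 12 h (1.71 and 1.72) and Soat1 at each time (-0.64, -0.63 and -0.70) are filled, as is Apoe at 24 h (-2.14).

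Abca1 encodes the transporter that passes cholesterol and phospholipid to lipid-poor apolipoproteins (GRCm38 chr4:53030787-53159895, minus strand, protein coding). It read 314, 302 and 369 CPM in the isotype 24 h libraries and 744, 797 and 799 CPM in the FcMR 24 h libraries. Every FcMR library was above every isotype library, and the fitted means were 2.38-fold apart. The log2 fold change was 1.25 ± 0.104 (SE, n = 3 a group; edgeR adjusted p = 9.29e-08), and it ran from 1.20 to 1.35 over the 17 alternatives, all called.

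Sums of cell type markers also stood apart between the 24 h groups in which Abca1, Apoe and Soat1 were called. The summed macrophage markers lay between 31004 and 35181 CPM with isotype and between 25244 and 27094 CPM with FcMR. Most of that sum was Lyz2 (26514 to 30533 CPM with isotype and 21025 to 22875 CPM with FcMR). Lyz2, Fcgr1, Itgam and Mertk were lower with FcMR without overlap, while Cd68 and Csf1r overlapped. Adgre1 went the other way, from 806 to 881 CPM with isotype against 1304 to 1719 CPM with FcMR. The dendritic cell sum lay between 1406 and 1543 CPM with isotype and between 1587 and 1666 CPM with FcMR. In it Ccr7 (369 to 429 and 639 to 702 CPM) and Zbtb46 were higher with FcMR. Itgax was lower (967 to 1081 and 853 to 893 CPM), and the other members overlapped. The neutrophil sum lay between 149 and 171 CPM with isotype and between 194 and 206 CPM with FcMR. There S100a8 was higher with FcMR (84.5 to 86.5 and 132 to 144 CPM). S100a9 overlapped (59.7 to 82.4 and 53.9 to 69.6 CPM). At 4 h Ch25h and Soat1 were called. There the dendritic cell sum lay between 1456 and 1524 CPM with isotype and between 1655 and 1820 CPM with FcMR. In it Ccr7 (239 to 382 and 401 to 513 CPM) and Itgax (1050 to 1164 and 1184 to 1233 CPM) were higher with FcMR. The other members overlapped. Of the macrophage markers, Fcgr1 and Mertk were higher with FcMR, Csf1r was lower and the others overlapped. At 12 h, where Ch25h and Soat1 were called again, the dendritic cell sums overlapped (1727 to 1790 and 1657 to 1877 CPM). The part of these markers in the results was not tested.

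At the earlier times the FcMR difference of Abca1 did not pass the test. The 12 h libraries read 303, 303 and 334 CPM with isotype and 397, 350 and 382 CPM with FcMR. Those groups did not overlap, and the log2 fold change was 0.26 ± 0.103 (edgeR adjusted p = 0.0988), or 0.22 (0.252) without both libraries out of title order. At 4 h the isotype libraries read 151, 143 and 139 CPM and the FcMR libraries 130, 137 and 151 CPM, which overlap (log2 fold change -0.05, and -0.08 without both libraries out of title order). The group means, ranked, ran from FcMR 4 h and isotype 4 h through untreated (148, 194 and 194 CPM) to the 12 h groups and isotype 24 h. The untreated libraries lay below those of isotype 12 h with no overlap, while isotype 12 h, isotype 24 h and FcMR 12 h overlapped with their neighbours in that order. The FcMR 24 h libraries stood above all others.

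No untreated cells were taken at 4, 12 or 24 h, so the isotype protein and the time in culture cannot be told apart in what follows for isotype against untreated. Abca1 with isotype was higher than in untreated cells at 12 h (log2 fold change 0.81 ± 0.104, edgeR adjusted p = 5.63e-06) and at 24 h (0.88 ± 0.104, adjusted p = 2.30e-06). At 4 h it was lower by the test (-0.31 ± 0.104, adjusted p = 0.0278), although the groups overlapped. That call at 4 h was lost without untreated replicate 2 (adjusted p = 0.114) or 3 (0.118) or isotype 4 h replicate 3 (0.0632), without both libraries out of title order (-0.28, 0.0613), and with only the libraries compared (0.162). With the scaling factors of the authors' normalized table the change was -0.06 (adjusted p = 0.799).

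Abcg1 encodes the transporter that passes cholesterol to mature high-density lipoprotein (GRCm38 chr17:31057675-31117988, plus strand, protein coding). It read 81.6, 74.0 and 119 CPM with isotype at 4 h and 131, 129 and 107 CPM with FcMR. At 12 h it read 203, 188 and 179 CPM with isotype and 125, 155 and 152 CPM with FcMR, and at 24 h 170, 156 and 168 against 143, 98.0 and 164 CPM. The FcMR libraries were thus all lower at 12 h, while at 4 h and 24 h the groups overlapped. No difference was called, with log2 fold changes of 0.41, -0.40 and -0.29 at 4, 12 and 24 h (edgeR adjusted p of 0.109, 0.136 and 0.273).

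The Abcg1 calls depended on the libraries out of title order and on the GC correction. Without both libraries out of title order the 4 h value was 0.65 (edgeR adjusted p = 0.00634), the 12 h value -0.30 (0.225) and the joint test over the times gave an adjusted p of 0.00722, in place of 0.0601. With the GC correction the 4 h and 12 h values were 0.40 (adjusted p = 0.0072) and -0.33 (0.0203), beside 0.41 and -0.40 without it. Against untreated cells (157, 147 and 147 CPM) Abcg1 was lower under isotype at 4 h, by -0.71 ± 0.172 on the log2 scale (adjusted p = 0.00336), with no overlap, and by -0.95 (0.000151) without both libraries out of title order. It was not called at 12 h or 24 h (0.34 and 0.13). Abca1 and Abcg1 therefore differed in their calls at 24 h of FcMR, and the difference between these genes was not tested.

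Apoe encodes the apolipoprotein that macrophages secrete as an acceptor of exported cholesterol (GRCm38 chr7:19696109-19699188, minus strand, protein coding). It read 53.4, 41.7 and 49.9 CPM in the isotype 24 h libraries and 9.56, 7.17 and 17.1 CPM in the FcMR 24 h libraries. All FcMR libraries were lower, by 4.42-fold between the means as fitted. The log2 fold change was -2.14 ± 0.607 (SE, n = 3 a group; edgeR adjusted p = 0.0166). The call was lost without FcMR 24 h replicate 1 (-2.04, adjusted p = 0.0614) or replicate 2 (-1.86, adjusted p = 0.0809), and 15 of 17 alternatives kept it.

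The spread of Apoe was wide in several groups. Isotype 4 h libraries read 26.9, 7.40 and 84.7 CPM, which spans the 28.9, 36.6 and 31.9 CPM of the FcMR 4 h libraries. The 4 h log2 fold change was -0.31 (edgeR adjusted p = 0.785), and 0.90 (0.0951) without both libraries out of title order. At 12 h the values were 37.2, 43.0 and 58.3 CPM with isotype and 9.25, 34.7 and 36.9 CPM with FcMR. These groups did not overlap, but the FcMR library of 9.25 CPM is the one out of title order. The 12 h log2 fold change was -0.78 ± 0.565 (edgeR adjusted p = 0.446), and -0.38 without both libraries out of title order (0.590). Untreated cells read 57.6, 38.1 and 59.2 CPM, and no isotype group was called against them. Isotype at 4 h minus untreated was -0.35 on the log2 scale (adjusted p = 0.659). It was -1.56 without isotype 4 h replicate 3 (0.0231) and -1.55 without both libraries out of title order (0.00388).

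**Figure D3:**
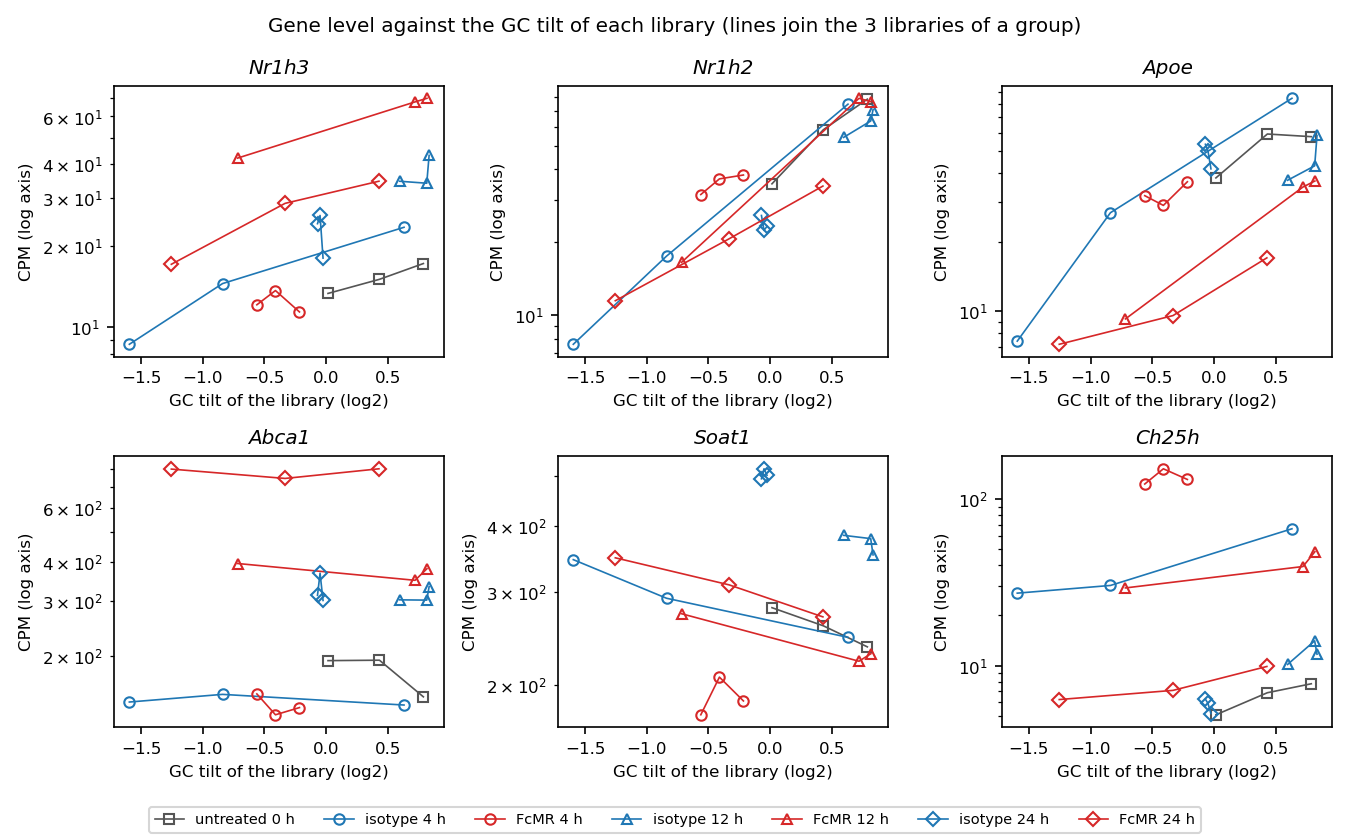
Gene level (CPM, log y axis) against the GC tilt of each library (log2, x axis) of 6 of the genes, where lines join the 3 libraries of a group. Nr1h2 and Apoe are low in libraries with a low tilt within most groups. For Apoe the FcMR 24 h libraries (tilts from -1.25 to 0.43) lie below those of isotype 24 h (-0.07 to -0.03).

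The transcripts of Nr1h2 and Apoe had the highest GC content of the 9 genes, 60.8% and 60.6%, while Abca1 stood at 48.8% and Soat1 at 47.1%. The library with the lowest GC tilt of its group was also the lowest for Nr1h2 in 6 of 7 groups, for Ch25h in 6, for Apoe and Abcg1 in 5, and for Abca1 in 0. The isotype 24 h libraries had tilts from -0.07 to -0.03, and the FcMR 24 h libraries -0.33, -1.25 and 0.43. FcMR 24 h replicate 3, with the tilt of 0.43, held 17.1 CPM of Apoe, below the lowest isotype 24 h library (41.7 CPM). With a correction for GC content the 24 h log2 fold change of Apoe was -1.89 (edgeR adjusted p = 1.00e-05). No isotype 24 h library had a tilt as low as -0.33 or as high as 0.43. Apart from this correction, the part of base composition in the Apoe difference was not tested.

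Nr1h3 encodes LXR alpha, the receptor that is itself a target of LXR in some cells (GRCm38 chr2:91184061-91202834, minus strand, protein coding, overlapping the noncoding genes Gm13783 and Gm23390). At 12 h it read 34.6, 34.0 and 43.1 CPM with isotype and 42.1, 67.9 and 70.0 CPM with FcMR. FcMR replicates 2 and 3 were above all isotype libraries, and replicate 1, the library out of title order, was inside their range. The log2 fold change was 0.68 ± 0.279 (SE, n = 3 a group) and was not called (edgeR adjusted p = 0.116). Without both libraries out of title order it was 0.88 (adjusted p = 0.0120), and with the GC correction 0.86 (1.01e-05), so the call turned on these choices.

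At 4 h and 24 h Nr1h3 overlapped between FcMR and isotype. The 4 h libraries read 14.5, 8.66 and 23.4 CPM with isotype and 13.7, 11.4 and 12.1 CPM with FcMR. The 4 h log2 fold change of -0.35 (edgeR adjusted p = 0.495) turned to 0.08 without both libraries out of title order (0.862). At 24 h the values were 24.1, 18 and 25.9 CPM with isotype and 28.7, 17.1 and 34.6 CPM with FcMR, a log2 fold change of 0.23 (adjusted p = 0.664). With the GC correction these changes were -0.38 (0.0493) and 0.37 (0.0270).

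Nr1h3 was called in isotype cells against untreated cells at 12 h. Untreated cells read 17.2, 13.3 and 15 CPM, all below the isotype 12 h libraries. Isotype was higher than untreated at 12 h by 1.30 ± 0.289 on the log2 scale (edgeR adjusted p = 0.00145), and at 24 h by 0.58 ± 0.293, which was not called (0.122) although the groups did not overlap. At 4 h the value was 0.06 (0.903), and -0.36 (0.302) without both libraries out of title order.

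Nr1h2 encodes LXR beta, the more widely expressed receptor (GRCm38 chr7:44549616-44553951, minus strand, protein coding). Its FcMR difference was not called at any time, with log2 fold changes of 0.07, -0.14 and -0.14 at 4, 12 and 24 h and SEs of 0.616, 0.596 and 0.629. Libraries of one group differed widely. Isotype 4 h libraries read 17.5, 7.58 and 74.4 CPM and FcMR 12 h libraries 16.5, 78.7 and 76.2 CPM, so in each of these groups the library out of title order was the one that stood away from the others. Without both, the 4 h value was 1.48 (edgeR adjusted p = 0.0152) and the 12 h value 0.30 (0.685). Isotype minus untreated at 4 h was -0.75 with all libraries (0.364) and -2.14 without both (0.000531).

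The other groups of Nr1h2 read 78.0, 34.9 and 58.4 CPM untreated, 36.5, 37.9 and 31.5 CPM with FcMR at 4 h, and 54.2, 63.4 and 70.6 CPM with isotype at 12 h. At 24 h they read 25.8, 23.3 and 22.4 CPM with isotype and 20.7, 11.5 and 34.1 CPM with FcMR. All isotype 24 h libraries were below the untreated ones, with a log2 fold change of -1.25 ± 0.621 that was not called (edgeR adjusted p = 0.116). It was -1.19 (0.00294) with only the libraries compared and -0.69 (0.0281) with the GC correction.

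Mylip encodes the ubiquitin ligase that marks the low-density lipoprotein receptor for degradation, and is an LXR target (GRCm38 chr13:45389742-45412022, plus strand, protein coding). Its libraries agreed closely within groups. Untreated cells read 27.7, 26.6 and 29.0 CPM, and the isotype libraries 46.2, 44.4 and 50.7 CPM at 4 h, 51.1, 56.9 and 61.6 CPM at 12 h, and 52.1, 50.4 and 47.8 CPM at 24 h. All treated libraries lay above the untreated ones. Isotype was higher than untreated by 0.77, 1.03 and 0.85 on the log2 scale (SE of 0.0839, 0.0829 and 0.0834; edgeR adjusted p of 1.13e-06, 1.83e-08 and 2.26e-07), and at 4 h by 0.71 without both libraries out of title order.

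No FcMR difference was called for Mylip. FcMR libraries read 44.5, 48.5 and 46.8 CPM at 4 h, 57.0, 56.1 and 62.2 CPM at 12 h and 42.4, 46.7 and 44.5 CPM at 24 h. The log2 fold changes were -0.02, 0.05 and -0.17, and the SE was at most 0.0831. Without both libraries out of title order the 4 h and 12 h values were 0.04 and 0.06. At 24 h the groups did not overlap, with FcMR lower (edgeR adjusted p = 0.172, and 0.0484 with the GC correction).

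Lpcat3 encodes the acyltransferase that places polyunsaturated chains into membrane phospholipids, and is an LXR target in macrophages (GRCm38 chr6:124663027-124704418, plus strand, protein coding). It overlaps Emg1 on the opposite strand, and no label says that counting used the strand. It ran from 64.2 to 102 CPM over the 21 libraries, the smallest ratio of highest to lowest among the 9 genes. Log2 fold changes for FcMR were 0.09, -0.07 and 0.05 (SE at most 0.0889) and for isotype against untreated 0.18, -0.13 and -0.18. No comparison was called. Without both libraries out of title order FcMR gave 0.14 and -0.03 at 4 h and 12 h, and isotype against untreated 0.13 at 4 h. With the GC correction isotype was higher than untreated at 4 h by 0.31 (edgeR adjusted p = 0.00301) and different at 12 h by -0.20 (0.0310).

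Ch25h encodes the enzyme that makes an oxysterol from cholesterol and is known as an interferon-inducible gene (GRCm38 chr19:34473778-34475164, minus strand, protein coding). It overlaps the long noncoding gene Gm26902 on the opposite strand. At 4 h it read 30.3, 27.2 and 66.4 CPM with isotype and 152, 131 and 123 CPM with FcMR. All FcMR libraries were higher, and the isotype library out of title order was the nearest to them. The log2 fold change was 1.71 ± 0.275 (SE, n = 3 a group; edgeR adjusted p = 0.000273), and 2.24 (6.75e-07) without both libraries out of title order.

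Ch25h was called again at 12 h and not at 24 h. The 12 h libraries read 10.2, 14.1 and 11.7 CPM with isotype and 29.3, 39.4 and 48.3 CPM with FcMR, with no overlap (log2 fold change 1.72 ± 0.282, edgeR adjusted p = 0.000261). Without both libraries out of title order it was 1.90 (8.92e-07). The 24 h libraries read 6.28, 5.15 and 5.92 CPM with isotype and 7.09, 6.25 and 9.87 CPM with FcMR, which overlap (0.39 ± 0.320, adjusted p = 0.460). Whether the effect differed between times was not called in the joint test (adjusted p = 0.0700). It was called without both libraries out of title order (0.000568), and with DESeq2 (0.0101).

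Ch25h was also higher with isotype than in untreated cells at 4 h and 12 h. Untreated cells read 7.77, 5.06 and 6.87 CPM. The difference at 4 h was 2.68 ± 0.300 on the log2 scale, or 6.42-fold (edgeR adjusted p = 1.46e-06), and 2.17 (1.97e-07) without both libraries out of title order. At 12 h it was 0.87 ± 0.296 (0.0254). The 12 h call was lost without untreated replicate 2 (0.70, adjusted p = 0.123), untreated replicate 3 (0.91, 0.0522) or isotype 12 h replicate 2 (0.79, 0.0613). At 24 h the groups overlapped (-0.16, adjusted p = 0.716).

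Soat1 encodes the endoplasmic reticulum enzyme that esterifies cholesterol for storage (GRCm38 chr1:156424525-156474331, minus strand, protein coding). It overlaps Gm37648 on the opposite strand. At 4 h it read 292, 346 and 246 CPM with isotype and 207, 186 and 175 CPM with FcMR, and at 12 h 385, 379 and 353 against 273, 222 and 229 CPM. At 24 h it read 493, 501 and 515 CPM with isotype and 310, 349 and 269 CPM with FcMR. At each time all FcMR libraries were below all isotype libraries.

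The log2 fold change of Soat1 was -0.64, -0.63 and -0.70 at 4, 12 and 24 h (SE of 0.121 each; edgeR adjusted p of 0.00118, 0.00116 and 0.000320). Without both libraries out of title order the 4 h and 12 h values were -0.75 and -0.73, and all 17 alternatives called Soat1 at each time. The joint test did not call a difference between the times (adjusted p = 0.966). At 4 h isotype minus untreated was 0.19 (adjusted p = 0.241), and 0.31 (0.0303) without both libraries out of title order. In isotype cells Soat1 was higher than untreated (236, 280 and 259 CPM) at 12 h by 0.53 ± 0.120 (0.00183) and at 24 h by 0.96 ± 0.121 (4.72e-06). The FcMR 24 h libraries overlapped with those of isotype 4 h, the group ranked just below them.

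Counting groups that did not overlap, FcMR and isotype stood apart for 2 of the 9 genes at 4 h, where 29.7% of all genes tested did, for 5 at 12 h (35.4%) and for 4 at 24 h (34.4%). Isotype against untreated was called for 4 genes at 4 h, 2 higher and 2 lower, where 35.6% of all genes were called (20.4% up and 15.2% down). Mylip and Ch25h were the higher ones and Abca1 and Abcg1 the lower ones. At 12 h it was called for Nr1h3, Abca1, Mylip, Ch25h and Soat1, all higher, where 41.6% of all genes were called (22% up and 19.6% down). At 24 h it was called for Abca1, Mylip and Soat1, all higher, where 42.2% of all genes were called (21.3% up and 20.9% down). These groups stood apart for 3, 6 and 6 genes, against 42.4%, 61.8% and 62.7% of all genes. The isotype libraries enter both sets of comparisons, so the sets are not independent.

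The rest of the pathway was followed through 38 further genes, of which 36 were in the table and 35 were tested. Against isotype, 10 were called at 4 h (3 higher, 7 lower), where 17.7% of all genes were, 12 at 12 h, all lower, where 16.1% were, and 15 at 24 h (1 higher, 14 lower), where 20.9% were. The 5 groups of the list are small, and their counts below are read against the same shares. Their median log2 fold change was -0.09, -0.28 and -0.42, beside -0.07, -0.02 and 0.01 over all genes tested. The 4 h count rested on scaling and on single libraries. RLE factors gave 4 higher and 5 lower, the authors' factors 4 and 4, DESeq2 4 and 6, and no expression filter 4 and 3. Leaving out FcMR 4 h replicate 3 or isotype 4 h replicate 2 gave 5 calls, leaving out both libraries out of title order 16, and using only the libraries compared 3.

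Of the 8 partners and co-regulators, which include Rxra, 1 was called at 4 h, no more than the share of all genes, and 2 each at 12 h and 24 h, all lower. Pparg, the nuclear receptor of lipid-laden macrophages that acts upstream of Nr1h3 in this route, was among the lowest genes at each time. It had a mean of 14.6 ± 2.74 CPM (SD, n = 3) with isotype and 8.87 ± 1.21 with FcMR at 4 h, 11 ± 1.34 and 3.75 ± 0.416 at 12 h, and 16.6 ± 3.24 and 3.56 ± 0.216 at 24 h. The log2 fold changes were -0.70, -1.54 and -2.24, each called. Untreated cells held 29.6 ± 2.59 CPM.

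**Figure D4:**
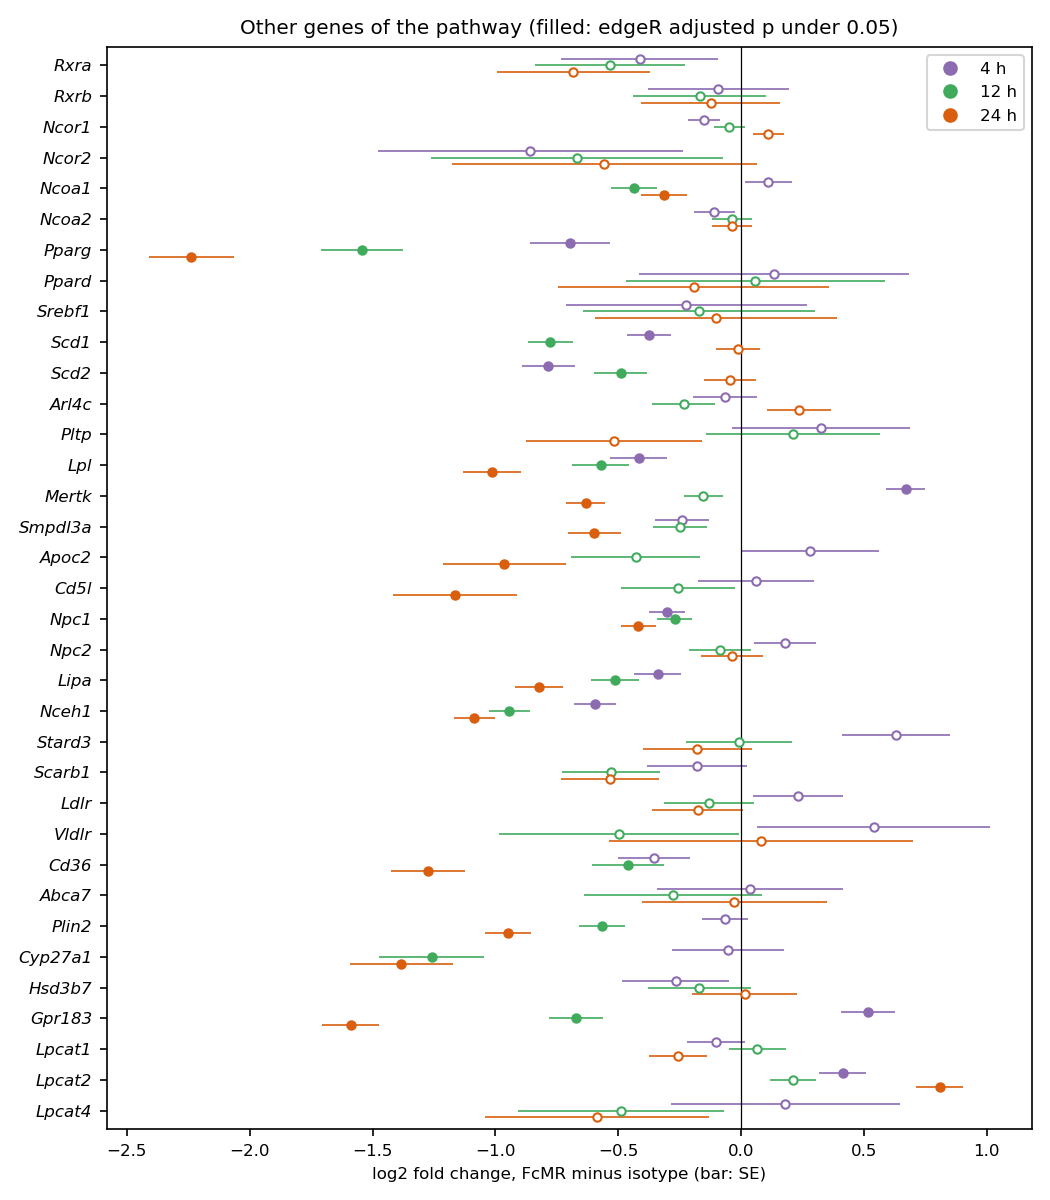
Log2 fold change for FcMR minus isotype (x axis, bars are SE) of the 35 tested pathway genes (y axis) at 4, 12 and 24 h, with filled points for an edgeR adjusted p under 0.05. Pparg moves from -0.70 at 4 h to -2.24 at 24 h, and Gpr183 and Mertk are above 0 at 4 h and below 0 at 24 h.

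Of the 10 further LXR targets tested, 4 were called at 4 h (1 higher, 3 lower), 3 at 12 h (all lower) and 5 at 24 h (all lower). Mertk, the receptor for dying cells, was higher at 4 h (77.7 ± 8.03 CPM with isotype and 124 ± 5.39 with FcMR, log2 fold change 0.67). At 12 h it was not called (-0.15), and at 24 h it was lower (117 ± 2.40 and 75.3 ± 3.88 CPM, -0.63). Scd2, a fatty acid desaturase, was lower at 4 h (594 ± 36.2 and 345 ± 48.2 CPM, -0.79) and at 12 h (565 ± 27.9 and 402 ± 36.2 CPM, -0.49). At 24 h it was not called (797 ± 39.7 and 773 ± 96.0 CPM, -0.04, edgeR adjusted p = 0.839).

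Of the 11 cholesterol handling genes, 3 were called at 4 h and 5 each at 12 h and 24 h, all lower. Nceh1, which hydrolyses the cholesteryl esters that Soat1 makes, was lower at 4 h (log2 fold change -0.59), 12 h (-0.94) and 24 h (-1.09). Its means were 162 ± 9.43 CPM with isotype and 84.1 ± 3.47 with FcMR at 12 h.

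In the oxysterol group, 3 of 5 genes were tested. Cyp27a1, a mitochondrial sterol hydroxylase, fell at 12 h, from 2.81 ± 0.271 CPM with isotype to 1.21 ± 0.329 with FcMR (log2 fold change -1.26). At 24 h it fell from 4.59 ± 0.420 to 1.77 ± 0.385 CPM (-1.38), and at 4 h it was not called (-0.05). Gpr183, the oxysterol-sensing receptor that guides immune cells, was higher at 4 h (35.2 ± 3.14 and 50.1 ± 4.05 CPM, 0.52) and lower at 12 h (-0.67) and 24 h (23.3 ± 0.918 and 7.77 ± 1.02 CPM, -1.59). Hsd3b7, an enzyme of bile acid synthesis, was not called, with values of -0.27, -0.17 and 0.01. Of the 3 relatives of Lpcat3, Lpcat2 was higher at 4 h (0.41) and at 24 h (99.7 ± 6.46 and 175 ± 19.6 CPM, 0.81) and was not called at 12 h (0.21).

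Against untreated cells, isotype was called for 20 of the 35 pathway genes at 4 h (11 higher, 9 lower), where 35.6% of all genes were called. It was called for 17 at 12 h, 11 of them higher (41.6% of all genes), and for 18 at 24 h, 14 of them higher (42.2%). The median log2 fold changes were -0.18, 0.10 and 0.13, beside 0.00, 0.03 and -0.04 over all genes tested.

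The genes whose log2 CPM followed each member most closely over the 21 libraries were found among 11101 expressed genes, as a description, since the libraries share groups, depth and base composition. Abca1 was followed by Bst1 (Pearson r = 0.965), Ch25h by Il27 (0.973) and Larp1 (0.970), and Soat1 by Slc39a10 (0.967) and Tlr13 (0.965). Nr1h2 was followed by Map2k2 (0.992) and Ints1 (0.991), and Apoe by Fam129b (0.951) and Csnk1e (0.945), all 4 with transcripts of 56.9% to 59.1% GC. Nr1h3 was followed by Pou2f2 (0.935) and Klc2 (0.934), and Abcg1 by Coro7 and Ttc7 (both 0.929), with transcripts of 57.7% to 61.2% GC. Mylip was followed by Tmem106a (0.947) and Tmem178 (0.941), and Lpcat3 by Il10ra (0.888) and Hivep1 (0.876). The genes named for Abca1, Ch25h, Soat1, Mylip and Lpcat3 had 41.5% to 56.2% GC.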

How the data were processed

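One of the authors' deposited tables gives a whole number per library for each of 23250 genes. These were treated as estimated counts because the submitters' processing notes name kallisto 0.44.0. Rounding changed none. The notes also name CASAVA 1.8.2, DESeq2 and the builds mm10 and GRCm38, with no role. The kit was TruSeq RNA v2 with 100 ng of RNA and 75 bp single-end reads, per the labels. A second table deposited by the authors holds normalized values on a linear signal scale, used only for an alternative scaling. No strand setting is given in the sources used here.

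Symbols and positions come from GENCODE M21 (GRCm38), which matched 23206 genes. One edgeR quasi-likelihood fit (edgeR 4.0.16, R 4.3.3) of the 21 libraries had a coefficient per group, TMM factors and filterByExpr (minimum 10 counts, 13468 genes kept), with Benjamini-Hochberg adjustment. Fold changes are log2, with the SE from the F value. The script was tested on simulated data. Floors of 3 counts cover counting error only.

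Alternatives were RLE factors, other filters, DESeq2 1.42.0, limma 3.58.1, the authors' factors, a GC correction (a spline per library on transcript GC), the replicate number as a block, only the libraries compared, leaving out each library in turn, and leaving out both libraries out of title order. The 9 genes and all lists were chosen with earlier results of these data known. Named pathway genes are the 3 highest and 3 lowest called per FcMR comparison and the oxysterol group. For each member, the 2 most correlated genes (average log2 CPM of at least 1) are named, except 1 that is not reported here.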

Additional observations from a re-analysis of the deposited data

Results flagged for a closer look

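The joint edgeR test of a change in the FcMR effect between the 3 times, adjusted over all genes tested, called 1 of the 9 genes and 11 of the 35 pathway genes, beside 11% of all genes. The 7 pathway genes given here were named for the largest calls at single times, which favours effects that change with time. The adjusted p was 7.70e-07 for Gpr183 and 2.68e-06 for Mertk, which were both higher than isotype at 4 h and lower at 24 h. It was 3.78e-05 for Abca1, whose difference was called at 24 h. It was 0.00100 for Pparg and 0.0135 for Cyp27a1, whose fold changes were more negative at 24 h than at 4 h. It was 0.00957 for Scd2, which was lower in the earlier comparisons and uncalled in the last, 0.0242 for Nceh1 and 0.0170 for Lpcat2.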

How the results depend on the processing

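Of 918 log2 fold changes of the 9 genes under the alternatives, 312 were called as before with the same sign, 49 were newly called, 11 lost their call and 546 were called in neither fit, of which 51 changed sign; no called value reversed. Of the joint tests, 234 kept their side of the threshold and 27 passed it newly. The FcMR calls among the 9 genes, 2, 2 and 3 at 4, 12 and 24 h, became 4, 4 and 5 with the GC correction, under which all genes called rose too, from 17.7%, 16.1% and 20.9% to 27.9%, 25% and 30%. They became 4, 6 and 5 with the replicate block and GC correction together (29.1%, 26.4% and 30.9% of all genes). The 4 h count was 4 without both libraries out of title order (28.3% of all genes). For isotype against untreated at 24 h the 3 calls (42.2% of all genes) became 5 with the GC correction (54.4%), 5 with the block and GC correction (55.1%), 5 without both libraries out of title order (48.5%) and 6 with only the libraries compared (56.7%). The joint test called 1 gene (11% of all genes), but 3 with RLE factors (10.1%), 3 with DESeq2 (12.7%), 3 with limma (11.5%), 2 with the authors' factors (7.43%), 5 with the GC correction (22.3%), 5 with the block and GC correction (23.9%), 4 without both libraries out of title order (19%) and 1 to 4 when a library was left out. The pathway calls at 4 h, 10, whose alternatives were chosen after seeing the data, became 16 without both libraries out of title order (28.3% of all genes), 3 with only the libraries compared (7.38%) and 5 to 13 when a library was left out. The cause of these shifts was not tested. At 12 h the deviations of same-numbered FcMR and isotype libraries from their group means correlated at 0.199, 0.046 and 0.073. The first of these uses the FcMR library out of title order. For isotype 4 h and untreated libraries the correlations were -0.164, 0.338 and 0.089. With 3 libraries a group that differ in GC tilt, these values cannot settle if replicate numbers pair the libraries. With the replicate block alone, 2, 3 and 3 of the 9 genes were called against isotype, 4, 5 and 3 for isotype against untreated, and 2 in the joint test. Without an expression filter the median of all genes moved by -0.12 for isotype against untreated at 4 h. A difference of 1 log2 unit against isotype in Nr1h2 or Apoe lay within 2 SE. Differences of that size or smaller were thus not detectable at this spread. Larger ones could be missed too, as Nr1h2 for isotype minus untreated at 24 h (-1.25) was not called.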
